A study of Mus musculus with 4 samples.

Results

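Semaphorins, SLITs and netrins are guidance cues, and 49 genes for these ligands and their plexin, neuropilin, ROBO, DCC and UNC5 receptors were named on the arrays. They were chosen by gene name alone, and a gene was tested when its probe lay well above background in all 4 pools of a group. This left 46 genes of the 22455 tested, and all 46 were well above background in both groups. Ntn5, Ntng2 and Unc5d were well above background on 0 of the 4 arrays in either group and were not tested. The samples were ureters of wildtype NMRI mouse embryos at E12.5, explanted and kept for 18 h in serum-free medium with 10 µM IWP-2 or with the solvent DMSO (2:1000, control). IWP-2 is an inhibitor of Porcupine, the enzyme that WNT ligands need for secretion. Each of 4 two-colour arrays carried RNA of 1 IWP-2 pool and 1 control pool of 23 or more ureters, with the IWP-2 pool in red on arrays 1 and 3 and in green on arrays 2 and 4. The sex of the embryos was not determined, and each pool is the whole ureter, so that fewer cells of a type and less RNA per cell cannot be told apart.

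Class 3 semaphorins are secreted and mostly act through a neuropilin that binds the ligand and a plexin that signals, whereas the other vertebrate classes are mostly membrane-bound and bind plexins directly. SLITs bind ROBO receptors, and netrins attract or repel through DCC and UNC5 receptors. These systems steer axons and vessels, and in the urinary tract SLIT2 and ROBO2 restrict the site of ureteric bud outgrowth. Netrin-Gs are membrane-anchored relatives of the netrins that bind some members of the NGL family and not DCC.

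Ratios are IWP-2 over control on the log2 scale, so that a negative value is a lower signal with IWP-2. P-values are from limma with a term for dye order, adjusted after Benjamini-Hochberg over all 22455 genes, and 0.05 was the threshold. As a check of the treatment, WNT target genes were read: Axin2 fell by 1.56 on the log2 scale (adjusted p = 1.22e-05), and Lef1, Nkd1 and Sp5 changed by -1.47, -1.59 and -2.72, on 4 of 4 arrays each. In each channel 75.1% to 80.0% of probes exceeded background, 0 gene spots were saturated, and the ratios of different arrays correlated at r = 0.625 to 0.831 over genes.

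With IWP-2, 9 of the 46 guidance genes fell and 15 rose, and 22 did not pass the test. Dcc is counted among the 22 by a repeat probe listed on chromosome 7, which may not measure it. The shares were 19.6% lower and 32.6% higher, beside 15.0% lower and 18.1% higher among all genes. With a change of at least 0.32 on the log2 scale, 7 were lower (15.2%, against 5.24% of all genes) and 3 were higher (6.52%, against 5.42%). The median log2 ratio of the 46 genes was 0.04 and their median size of change was 0.14, compared with 0.00 and 0.10 over all genes. The lower genes reached -1.96, while the higher genes spanned 0.14 to 0.68. In 8 guidance genes all IWP-2 channels lay below all control channels (11.5% of all genes did so), and in 7 genes all lay above (11.0%). Ligands and receptors each held both directions: 6 of 27 ligand genes were lower and 9 higher, and 3 of 19 receptor genes were lower and 6 higher. The count of higher guidance genes dropped to 9 without array 1, and to 5 when the 8 channels were fitted as separate samples. Over all genes the count of higher genes also dropped in these fits, from 4068 to 3041 and to 2040. The filter of the study, an intensity over 100 and a change of over 2-fold on each array, was applied to all 4 arrays. Intensity was read from the brighter channel, and the results text of the study names fewer arrays per stage. Of the 49 guidance gene names, 3 passed as lower (Sema3e, Sema3a and Ntng1) and 0 as higher. Among the 29924 gene names on the array, 0.348% passed as lower and 0.0735% as higher.

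**Figure D1:**
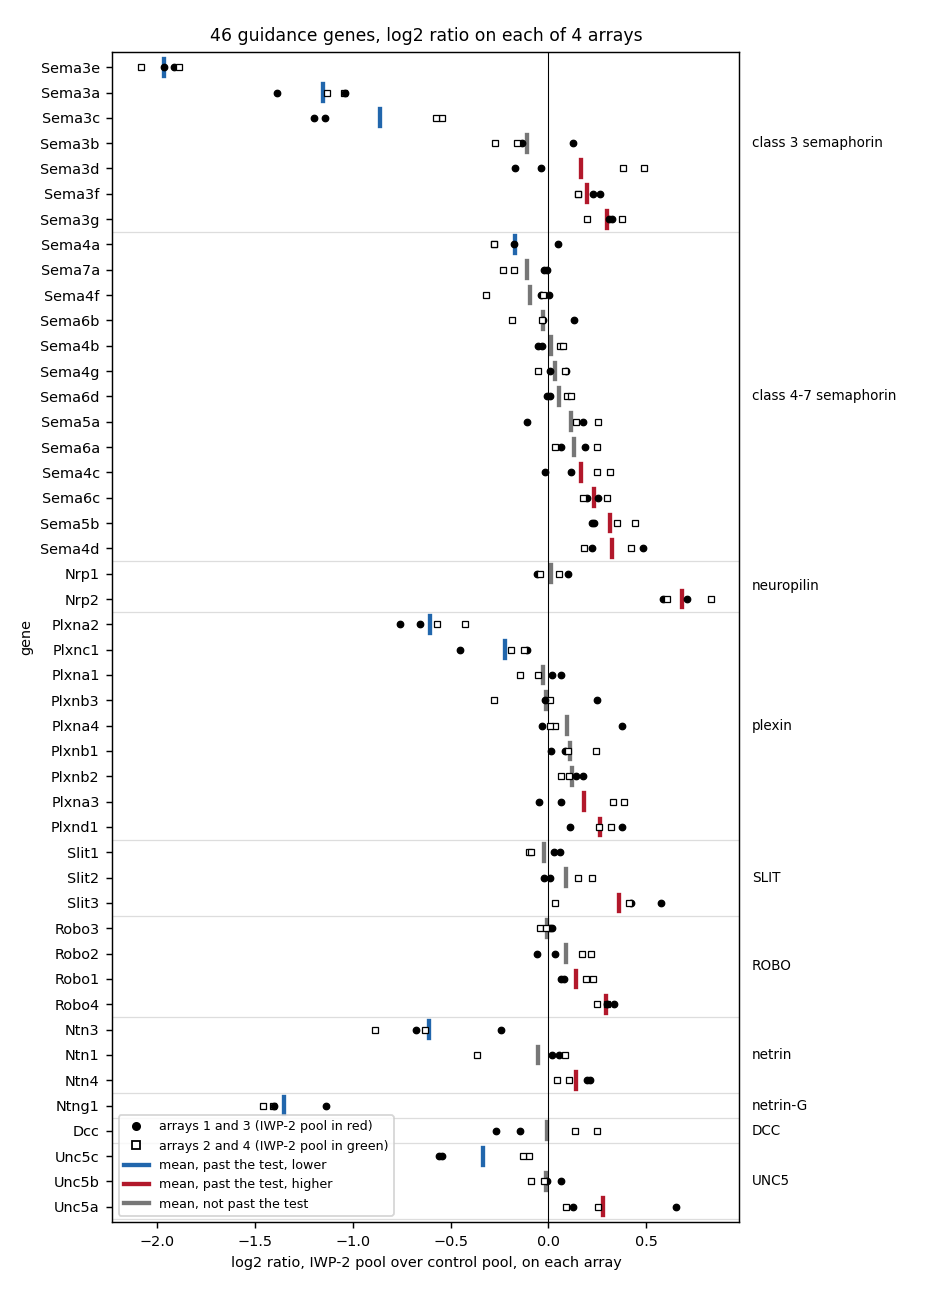
Log2 ratio of IWP-2 over control (x axis) for each of the 46 guidance genes (y axis, grouped by role), with 1 point per array (filled, arrays 1 and 3; open, arrays 2 and 4) and a bar at the mean, coloured by the test. Sema3e, Ntng1, Sema3a and Sema3c lie farthest to the left with all 4 arrays below 0, and Nrp2 lies farthest to the right. Genes such as Sema3c, Sema3d and Unc5c separate by dye order, as does the repeat probe that stands for Dcc.

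The largest change of the 46 genes was that of Sema3e, a class 3 semaphorin. All 7 genes of this class were measured, 3 fell (Sema3e, Sema3a and Sema3c), 3 rose by smaller amounts (Sema3g, Sema3f and Sema3d) and Sema3b did not pass the test. The lower and higher shares were 42.9% each, beside 15.0% lower and 18.1% higher among all genes. Sema3e encodes the ligand of plexin D1, a semaphorin that needs no neuropilin for this binding. Its probe (chr5:14256598-14256656 in mm9) gave normalised intensities of 740.4, 792, 771 and 723 in the control pools of arrays 1 to 4, and of 189, 187, 204 and 195 in the IWP-2 pools. The groups were far apart, with the highest IWP-2 pool well under the lowest control pool. The log2 ratios were -1.97, -2.08, -1.92 and -1.89, with a mean of -1.96 ± 0.09 (SD, n = 4), which is 3.90-fold lower (limma adjusted p = 7.28e-06). Over 16 alternatives in processing or arrays used, the mean ranged from -2.50 to -1.92, so its size depends on these choices.

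Sema3a encodes a classical repellent that binds neuropilin 1. Its control pools read 1383, 1287, 1519.6 and 1338 and its IWP-2 pools 528, 624, 739 and 610.4 at chr5:13602462-13602521 (mm9). Each IWP-2 pool was below each control pool. The log2 ratios of -1.39, -1.05, -1.04 and -1.13 had a mean of -1.15 ± 0.16 (SD, n = 4), 2.22-fold lower at a limma adjusted p of 9.54e-05, and a second probe read -0.87 ± 0.18.

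Sema3c encodes a secreted semaphorin that acts through both neuropilins. At chr5:17235981-17236040 (mm9) its control pools read 49546, 31925, 43617 and 33256 and its IWP-2 pools 21604, 21914, 19768 and 22356. The IWP-2 pools were alike, and the spread lay in the control pools, which were brighter in green (arrays 1 and 3) than in red. The log2 ratios were accordingly -1.20, -0.54, -1.14 and -0.57, and the mean was -0.86 ± 0.35 (SD, n = 4; 1.82-fold lower, limma adjusted p = 4.66e-05). A second Sema3c probe showed the same split (-1.10, -0.54, -1.23 and -0.57). The direction held in both dye orders, but the size was -1.17 on arrays 1 and 3 and -0.56 on arrays 2 and 4.

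Sema3e, Sema3a and Sema3c lie on chromosome 5 together with Sema3d, whereas Sema3b and Sema3f lie on chromosome 9 and Sema3g on chromosome 14. Sema3d, the fourth of the chromosome 5 genes, had log2 ratios of -0.04, 0.49, -0.17 and 0.38. It was below 0 on the arrays with the IWP-2 pool in red and above 0 on the others, and its mean of 0.16 ± 0.32 (adjusted p = 0.0321) was not past the test without array 1 (0.135) or array 2 (0.127). Sema3g, known from endothelium, rose by 0.30 ± 0.08 (adjusted p = 0.00412) and Sema3f, a ligand of neuropilin 2, by 0.20 ± 0.06 (0.0101), each above 0 on 4 of 4 arrays. A second and much dimmer Sema3g probe read -0.00 ± 0.10. Sema3b had a mean of -0.11 ± 0.17 and an adjusted p of 0.173.

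Of the 13 class 4 to 7 semaphorins, 1 fell (7.69%), 4 rose (30.8%) and 8 did not pass. Among all genes 15.0% were lower and 18.1% higher. Their median size of change was 0.11, against 0.30 in class 3, and this difference was not tested. Sema4d, the plexin B1 ligand known also as CD100, had control pools of 1981, 2287, 2233 and 2469.8 and IWP-2 pools of 2774, 3063, 2603 and 2799 at chr13:51796617-51796676 (mm9). All IWP-2 pools were above all control pools, by small margins. The log2 ratios of 0.49, 0.42, 0.22 and 0.18 gave 0.33 ± 0.15 (SD, n = 4), 1.25-fold higher with a limma adjusted p of 0.00977. The deposited table of fold changes gave an adjusted p of 0.0684. A second, dimmer Sema4d probe, against a predicted transcript, read 0.02 ± 0.04 and was not past the test (adjusted p over all probes = 0.687).

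Sema5b rose by 0.31 ± 0.10 (adjusted p = 0.00229) and Sema6c by 0.23 ± 0.06 (0.0082), both on 4 of 4 arrays, while dimmer probes read 0.21 and 0.02 for Sema5b and 0.11 for Sema6c. Sema4c had a mean of 0.16 ± 0.15 (0.0284) and Sema4a of -0.17 ± 0.15 (0.0373), each with 1 array of the opposite sign. Sema4c lost its call without array 1 (0.123), 2 (0.0556) or 4 (0.105), and Sema4a without array 2 (0.0883), 3 (0.162) or 4 (0.0886). The other 8 genes (Sema4b, Sema4f, Sema4g, Sema5a, Sema6a, Sema6b, Sema6d and Sema7a) had means between -0.11 and 0.13, and Sema6a passed the test only without array 2 (0.0499).

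Both neuropilins were measured, and Nrp2 rose while Nrp1 did not pass the test. Nrp2, the co-receptor for SEMA3F and for VEGF-C, had control pools of 8683, 9206, 9851 and 10160.2 and IWP-2 pools of 14177, 16373, 14761 and 15489 (probe at chr1:62865129-62865188, mm9). The pools of both groups were tight and far apart. The log2 ratios were 0.71, 0.83, 0.58 and 0.61 with a mean of 0.68 ± 0.11 (SD, n = 4), 1.60-fold higher (limma adjusted p = 0.000352), and this was the largest rise among the 46 genes. A second probe, for another transcript variant, rose by 0.48 ± 0.19. Nrp1, the co-receptor for SEMA3A, had log2 ratios of -0.06, -0.05, 0.10 and 0.05 and a mean of 0.01 ± 0.08 (adjusted p = 0.871). The difference between the Nrp2 and Nrp1 ratios was not tested.

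**Figure D2:**
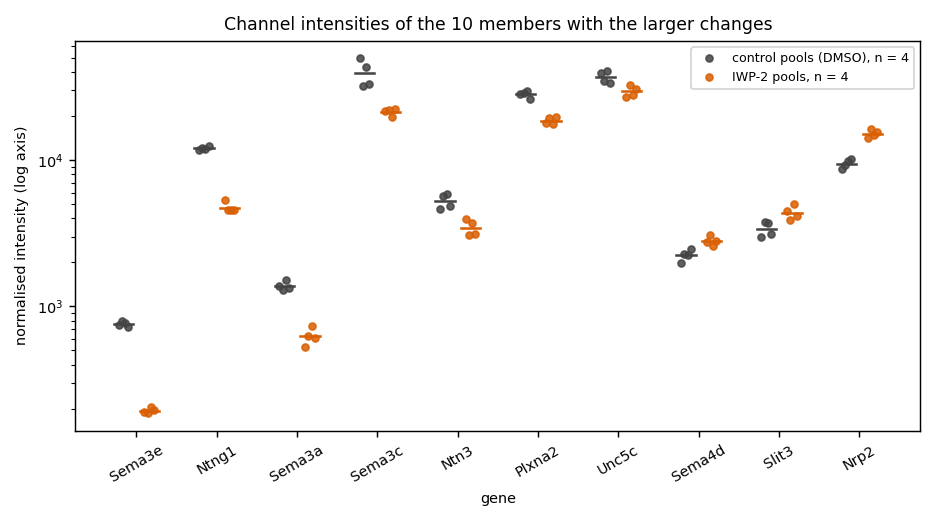
Normalised intensity (y axis, log scale) in the 4 control pools and 4 IWP-2 pools for the 10 guidance genes that passed the test with the same sign on 4 of 4 arrays and a change of at least 0.32, with 1 point per pool and a line at the group mean. The groups do not overlap in any of the 10 genes, and the gap is widest for Sema3e (control mean 756, IWP-2 mean 194), while levels are not comparable between genes because each has its own probe.

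Promoter sequence was looked up for the genes that moved, because canonical WNT signalling acts through TCF/LEF factors. The RefSeq windows of GRCm38.p6, 250 bases before to 50 bases after a start site, matched 38 of the 46 genes. Both strands were searched for the TCF/LEF letters, which were written as CTTTGAA or alternatively as CTTTGAT or alternatively as CTTTGTA or alternatively as CTTTGTT. The same search was made for the FOX letters TGTTTAC. For GLI the letters searched were TGGGTGGTC. A TCF/LEF match was in 11.8% of the 51 windows of the guidance genes and in 16.9% of all 32851 windows. FOX letters were in 0 of the 51 windows and in 3.65% of all windows, and GLI letters in 0 and in 0.253%. A TCF/LEF match was found for 6 genes, among them Sema3c and Sema3e, which fell, and Nrp2 and Sema3d, which were higher. The others were Plxnb1 and Sema6d, which did not pass. Of genes with a window, these were 2 of 9 lower, 2 of 14 higher and 2 of 15 that did not pass. Sequence farther from the start sites was not searched, and a role of these letters was not tested. The 250 bases before the start site are shown for the 3 lower semaphorins, for Ntng1 and for Nrp2, 5′ to 3′ on the strand of the gene, with a TCF/LEF match in capitals. They lie at chr5:14025026-14025275 (Sema3e, plus strand), chr5:13396534-13396783 (Sema3a, plus strand), chr5:17574566-17574815 (Sema3c, plus strand, its match lies past the start site and is not shown), chr3:110143473-110143722 (Ntng1, minus strand) and chr1:62703067-62703316 (Nrp2, plus strand) in GRCm38.p6.
Sema3e: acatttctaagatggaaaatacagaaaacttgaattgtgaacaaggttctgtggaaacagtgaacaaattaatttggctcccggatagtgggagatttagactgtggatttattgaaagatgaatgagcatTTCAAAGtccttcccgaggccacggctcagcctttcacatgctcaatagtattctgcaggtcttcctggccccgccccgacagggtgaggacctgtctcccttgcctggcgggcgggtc
Sema3a: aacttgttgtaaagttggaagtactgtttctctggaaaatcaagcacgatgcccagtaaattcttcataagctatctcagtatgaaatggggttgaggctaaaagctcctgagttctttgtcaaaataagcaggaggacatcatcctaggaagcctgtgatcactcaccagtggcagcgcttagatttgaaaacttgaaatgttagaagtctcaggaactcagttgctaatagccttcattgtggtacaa
Sema3c: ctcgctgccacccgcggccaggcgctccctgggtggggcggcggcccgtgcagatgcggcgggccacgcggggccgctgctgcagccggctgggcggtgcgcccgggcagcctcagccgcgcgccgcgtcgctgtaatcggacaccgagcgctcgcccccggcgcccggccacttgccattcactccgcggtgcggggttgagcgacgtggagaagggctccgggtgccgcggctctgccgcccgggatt
Ntng1: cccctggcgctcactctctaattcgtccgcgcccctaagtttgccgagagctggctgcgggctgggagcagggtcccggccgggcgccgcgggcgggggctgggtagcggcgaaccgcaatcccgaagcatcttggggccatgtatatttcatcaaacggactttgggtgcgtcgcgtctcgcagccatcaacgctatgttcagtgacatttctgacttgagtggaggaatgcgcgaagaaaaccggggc
Nrp2: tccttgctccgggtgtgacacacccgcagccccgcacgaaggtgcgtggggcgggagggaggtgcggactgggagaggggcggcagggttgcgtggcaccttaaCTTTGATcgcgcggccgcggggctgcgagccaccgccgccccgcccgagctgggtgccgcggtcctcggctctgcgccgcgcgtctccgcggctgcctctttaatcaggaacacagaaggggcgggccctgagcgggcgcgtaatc
The capitals of Sema3e are CTTTGAA read on the other strand, 119 bases before the start site, and those of Nrp2 are CTTTGAT, 146 bases before it. The windows of Sema3a and Ntng1 held none of these letters.

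Among the 9 plexins, the signalling receptors of the semaphorins, 2 fell, 2 rose and 5 did not pass. The lower and higher shares were 22.2% each, beside 15.0% lower and 18.1% higher among all genes. Plxna2 encodes a class A plexin that pairs with neuropilins. Its control pools read 28203, 28855, 29734 and 26338 and its IWP-2 pools 17875, 19453, 17568 and 19581 at chr1:196642958-196643017 (mm9). All IWP-2 pools were lower, and both groups were tight. The log2 ratios of -0.66, -0.57, -0.76 and -0.43 had a mean of -0.60 ± 0.14 (SD, n = 4), 1.52-fold lower with a limma adjusted p of 0.000324.

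Plxnc1, the receptor of SEMA7A, had a mean log2 ratio of -0.22 ± 0.16 (adjusted p = 0.0363), and its adjusted p was 0.125 without array 3, 0.0524 without array 2 and 0.0869 without array 4. A second Plxnc1 probe had a mean of -0.05 ± 0.13. Plxnd1, the receptor of SEMA3E and a gene of endothelium, rose by 0.26 ± 0.12 (adjusted p = 0.0121), on 4 of 4 arrays, and a second probe by 0.19 ± 0.13. Plxna3 had a mean of 0.18 ± 0.21 (0.0177), with -0.05 on array 3, and lost its call without array 1 (0.0793) or 4 (0.0665). The Plxna3 mean was 0.01 on arrays 1 and 3 and 0.36 on arrays 2 and 4. Plxna1, Plxna4 and Plxnb1 to Plxnb3 lay between -0.03 and 0.12. Of these, Plxnb2 was above 0 on 4 of 4 arrays (0.12 ± 0.05, adjusted p = 0.0524) and passed in 4 of 16 alternatives (lowest adjusted p 0.00318, from the deposited fold changes), whereas Plxna4 passed only without array 3 (0.0411).

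Of the 3 SLIT ligands, Slit3 rose. Its control pools read 2991, 3781, 3727 and 3119.9 and its IWP-2 pools 4452, 3864, 4985 and 4148 at chr11:35521559-35521618 (mm9). The lowest IWP-2 pool was just above the highest control pool, and these were the pair on array 2. The log2 ratios were 0.57, 0.03, 0.42 and 0.41, with a mean of 0.36 ± 0.23 (SD, n = 4; 1.28-fold higher, limma adjusted p = 0.00971), and the deposited fold changes gave an adjusted p of 0.128. Slit2, the ligand that restricts ureteric bud outgrowth, had a mean of 0.09 ± 0.12 (adjusted p = 0.131) and Slit1 of -0.03 ± 0.08 (0.646).

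Among the 4 ROBO receptors, Robo4, which is largely a gene of endothelium, rose by 0.29 ± 0.03 (adjusted p = 0.00252), and its ratios of 0.33, 0.30, 0.30 and 0.25 were close together. Robo1 had 0.14 ± 0.08 (0.0316), above 0 on 4 of 4 arrays, but passed in no fit that left out an array (0.0829 to 0.125). Robo2, the receptor that acts with SLIT2 at the ureteric bud, had 0.09 ± 0.13 (0.136), and its 2 other probes read -0.00 ± 0.06 and 0.04 ± 0.13. Robo3, at a low intensity (control mean 102), had -0.01 ± 0.03 (0.89). A dimmer Robo1 probe had a mean of 0.01 ± 0.35.

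In the netrin group, Ntn3 fell, Ntn4 was slightly higher and Ntn1 did not pass. Ntn3 encodes a secreted netrin close to netrin 1. Its control pools read 4644, 5687, 5891 and 4868 and its IWP-2 pools 3929, 3072, 3689 and 3141 at chr17:24341753-24341812 (mm9). All IWP-2 pools were lower, with the narrowest gap on array 1. The log2 ratios of -0.24, -0.89, -0.68 and -0.63 had a mean of -0.61 ± 0.27 (SD, n = 4), 1.53-fold lower with a limma adjusted p of 0.00256, and the deposited fold changes gave an adjusted p of 0.0879.

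Ntn1, the founding netrin, had ratios of 0.02, -0.37, 0.05 and 0.09 and a mean of -0.05 ± 0.21 (adjusted p = 0.632). Ntn4, a laminin-binding netrin of basement membranes, had 0.14 ± 0.08 (0.0347) at a low intensity (control mean 122, IWP-2 mean 134) and passed in no fit that left out an array (0.0783 to 0.143).

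Ntng1, which encodes the membrane-anchored netrin-G1, showed the second largest fall of the 46 genes. Its control pools read 11694, 12031, 11979 and 12483 and its IWP-2 pools 5323, 4538, 4523 and 4539.9 at chr3:109946348-109946407 (mm9). The groups were tight and far apart, with array 1 giving the smallest difference. The log2 ratios were -1.14, -1.41, -1.41 and -1.46, with a mean of -1.35 ± 0.15 (SD, n = 4; 2.55-fold lower, limma adjusted p = 3.06e-05). The 3 other Ntng1 probes read -1.10 ± 0.10, -1.80 ± 0.25 and -1.07 ± 0.07, so that all 4 fell by more than 1 on the log2 scale.

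Of the netrin receptors, Unc5c fell and Unc5a was higher. Unc5c, a receptor that mediates repulsion by netrin, had control pools of 39693, 34908, 40841 and 33615 and IWP-2 pools of 27186, 32559, 27737 and 30681 at chr3:141497142-141497201 (mm9). Every IWP-2 pool was below every control pool, yet the gap was far smaller on arrays 2 and 4. The log2 ratios were -0.55, -0.10, -0.56 and -0.13, and the mean was -0.33 ± 0.25 (SD, n = 4; 1.26-fold lower, limma adjusted p = 0.00152). A second Unc5c probe had the same split (mean -0.29 ± 0.19). Unc5a had 0.28 ± 0.26 (adjusted p = 0.0475), with 0.65 on array 1 and 0.09 to 0.25 on the others, and 0.118 without array 1 or 0.109 without array 4. Unc5b had -0.01 ± 0.06 (0.822).

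For Dcc the choice of probe set the result. The brightest probe named Dcc, which stood for the gene, held 18 GAA triplets and was listed on chromosome 7, while the other Dcc probes were listed on chromosome 18. Its control mean was 40020, against 359 and 236 for the other probes. Given its repeat and its listed position, it may not measure Dcc. The repeat probe gave ratios of -0.14, 0.13, -0.27 and 0.25, which followed the dye order, and a mean of -0.01 ± 0.24 (adjusted p = 0.902). The dimmer probes gave -0.25 ± 0.16 and -0.21 ± 0.07, below 0 on 4 of 4 arrays each, with adjusted p-values over all probes of 0.0183 and 0.0138. Read from the brighter of these, Dcc was lower (adjusted p over genes = 0.0198), which made 10 lower guidance genes. This comparison was chosen after the values were seen.

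**Figure D3:**
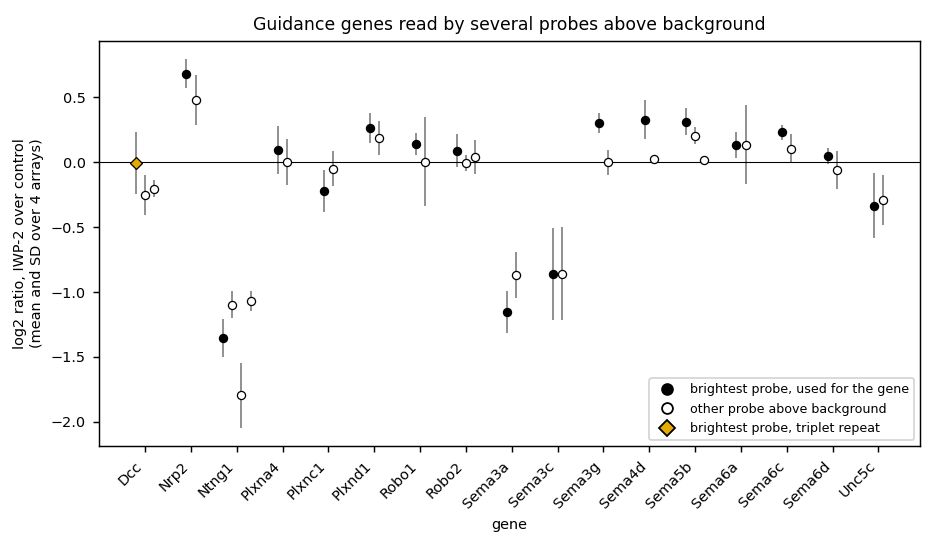
Mean log2 ratio with SD over 4 arrays (y axis) for the 39 probes above background of the 17 guidance genes that had several, brightest probe first within a gene. The probes of Ntng1, Sema3a, Sema3c, Nrp2 and Unc5c fall on the same side of 0, whereas the Dcc repeat probe lies at -0.01 beside -0.25 and -0.21, and the dimmer probes of Sema3g and Sema4d lie near 0.

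Dye order divided many genes. In 27 of the 46 guidance genes (58.7%) both ratios of one dye order were above both of the other, compared with 52.7% of all genes. limma's dye term passed for 0 of the 22455 genes after adjustment, and for 4233 (18.9%) at an unadjusted p under 0.05, which included 9 guidance genes (19.6%). Because each dye order was used on 2 of the 4 arrays, a dye effect cancels in the means.

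Marker genes of several cell types were higher with IWP-2 as well. Beside the counts below, 18.1% of all genes were higher and 15.0% lower, with a median of 0.00. Each list held 6 or 7 genes, and no list was tested as a set. Of 7 epithelial markers 7 were higher (median 0.30), and their summed intensity was 179906 to 195169 in control pools and 205264 to 255388 in IWP-2 pools. Of 7 endothelial markers 4 were higher (median 0.15), with sums of 53849 to 62367 and of 61397 to 72095, respectively. The endothelial markers Tek (0.03), Tie1 (0.12) and Emcn (0.12) did not pass. Robo4, Plxnd1 and Sema3g rose too, although the dimmer Sema3g probe did not. Any part of endothelium in these rises was not tested. Of 6 neuronal markers 4 were higher (median 0.29), with sums of 35206 to 49074 and of 39657 to 54909, and of 6 neural crest and glia markers 3 (median 0.26), with 32992 to 42872 and 34136 to 51125. Blood markers were higher in 4 of 6 genes (median 0.27; 283286 to 430626 in control and 404700 to 456881 in IWP-2 pools). Their medians on arrays 1 to 4 were 0.36, 0.06, 0.45 and 0.10, larger where the IWP-2 pool was red. Hbb-y, called higher, read 0.61, -0.10, 0.73 and -0.14. For mesenchyme, the main tissue of the early ureter, 1 of 6 markers fell (Tbx18), 2 rose (Pdgfrb and Twist1), and the sums overlapped (294255 to 322972 and 308907 to 344897). Of 6 nephron progenitor markers 5 were higher and 1 lower (46205 to 50529 and 51481 to 58673). All markers were well above background in both groups.

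Co-receptors, further ligands and cytoplasmic effectors of the same pathways were counted from a list of 47 genes, of which 46 were tested and Rnd1 was not. In this list 13 genes fell (28.3%, against 15.0% of all genes), 10 rose (21.7%, near the 18.1% of all genes) and 23 did not pass. The median log2 ratio was -0.00 and the median size of change was 0.14. With median centring in place of loess the split was 12 lower and 6 higher, and with the processed signals 11 and 5. Among all 22455 genes, median centring gave 3126 lower and 3118 higher, and the processed signals gave 2833 and 3487. At least 0.32 was reached by 8 of the genes that fell (17.4%, against 5.24% of all genes), while the largest rise was 0.28 (Chl1).

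The effectors that fell most were Dpysl4 (-0.68 ± 0.07, adjusted p = 0.000221), which encodes a collapsin response mediator protein, Farp2 (-0.49 ± 0.10, 0.000879), an exchange factor bound by class A plexins, and Mical1 (-0.44 ± 0.15, 0.00101), a plexin-bound oxidase of actin. Dpysl3, of the same family as Dpysl4, fell by 0.33 on the log2 scale (0.00403). Among ligands and co-receptors, Lrrc4b, an NGL family gene, fell by 0.55 (0.00099), Flrt2, whose protein binds UNC5 receptors, by 0.46 (0.000597), Rgmb, a ligand of neogenin, by 0.43 (0.00647), and Gpc1, a glypican that binds SLIT, by 0.35 (0.0025). Each of these 8 genes was below 0 on 4 of 4 arrays with no overlap between the channels. The NGL family genes Lrrc4 and Lrrc4c did not pass the test, at -0.08 ± 0.11 and 0.03 ± 0.07 (limma adjusted p = 0.227 and 0.639). Binding to netrin-G1 was not measured for any NGL family gene. The 10 genes that rose included Chl1 (0.28 ± 0.13), Trio (0.26 ± 0.11), Rnd3 (0.25 ± 0.14), Arhgef12 (0.24 ± 0.13) and Crmp1 (0.23 ± 0.16).

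**Figure D4:**
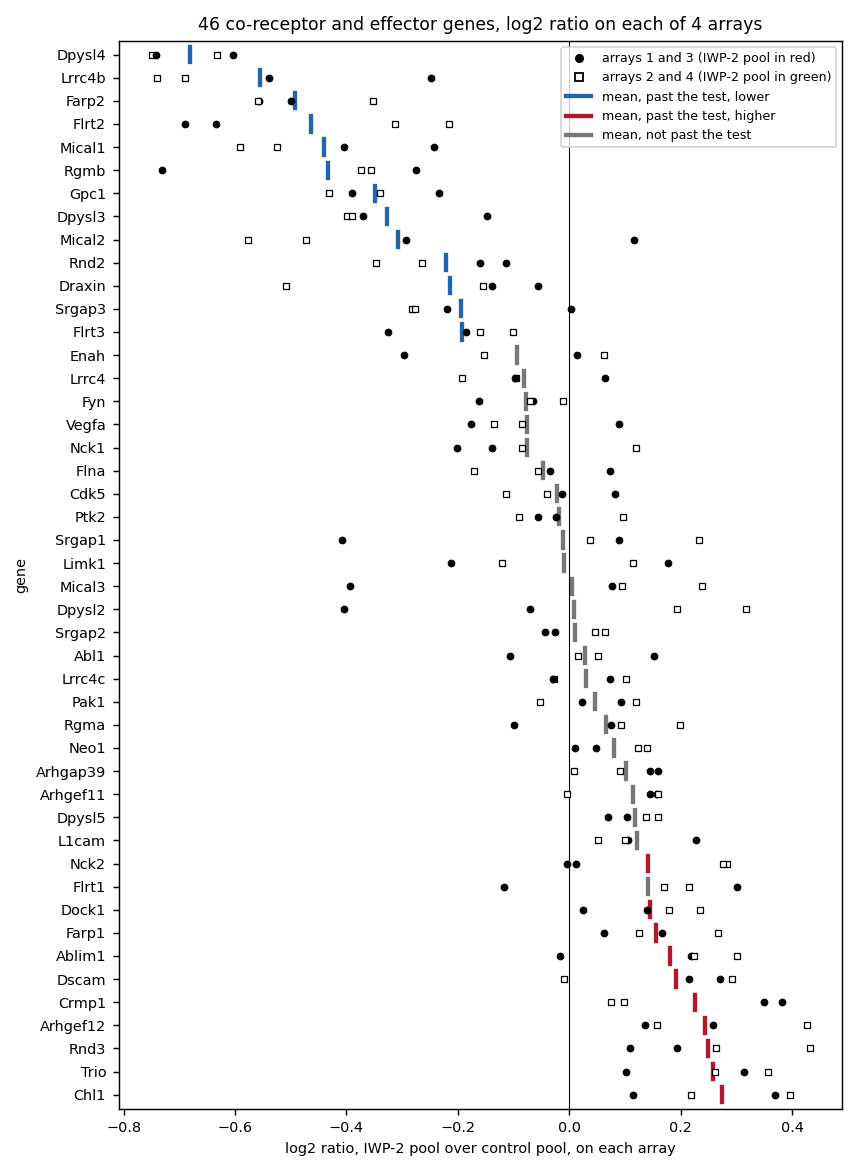
Log2 ratio of IWP-2 over control on each of 4 arrays (x axis) for the 46 tested co-receptor, ligand and effector genes (y axis, ordered by mean), with a bar at the mean coloured by the test. Filled points are arrays 1 and 3 and open squares arrays 2 and 4; the means reach -0.68 (Dpysl4), with 8 called genes at or past -0.32, and stop at 0.28 (Chl1) on the upper side.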

How the data were processed

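Ureter explants were compared on 4 two-colour Agilent arrays of 1 scan. Per the file headers, the deposited scanner files hold spot intensity read by Agilent Feature Extraction 10.7.3.1, the deposited processed intensities are background-subtracted and dye-normalised, and the deposited log10 ratios are red over green. The deposited series table holds a signed fold change per probe, rounded by the authors; its normalisation is not given in the sources used here. From the raw intensities, background was corrected by normexp (offset 50), dyes by loess (span 0.3) in limma 3.58.1 (R 4.3.3), outlier spots (3.01% to 3.38%) were dropped, and the 4 spots of a probe were averaged. Channel values were then scaled between arrays (Aquantile). The brightest probe above background stood for a gene. The direction was checked against the deposited log10 ratios (r = 0.911 to 0.935). Probe coordinates are those of the files (mm9), and exon or UTR annotation of that build was not used here. Samples were grouped by the labels. The unit of the test was the ratio on an array, with treatment and dye order as terms and 2 residual degrees of freedom per gene. The 2 channels of an array deviated together from their group means (r = 0.513, 0.311, 0.164 and 0.436), so the array pairs the pools. The labels do not say that pools came from separate cultures, so p-values measure the spread between these pools. The fit was tested on simulated data. By rule, genes past the test with the same sign on 4 of 4 arrays and a change of at least 0.32 got their value in every pool, and other genes their mean and call. Per-array ratios of Sema3d, Nrp1, Ntn1, Dcc, Robo4 and Unc5a, which that rule does not cover, were added after their values were seen. The members and gene lists were chosen with earlier results of these data known. The number of arrays limits the precision.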

Additional observations from a re-analysis of the deposited data

Results flagged for a closer look

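In 4 of the 46 guidance genes, 1 of the 4 arrays stood apart from the others by Dixon's criterion. Chance alone flags about 1 in 20 groups, or 2.3 of 46. Ntn1 read -0.37 on array 2 against 0.02 to 0.09 on the others, and Sema4f read -0.32 on array 2 against -0.04 to 0.00 on the others. Plxna4 read 0.37 on array 1 against -0.03 to 0.03. Ntng1 read -1.14 on array 1 against -1.46 to -1.41, the same direction on all 4 arrays.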

How the results depend on the processing

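Of the 24 guidance genes past the test, 7 (Nrp2, Ntng1, Plxna2, Sema3a, Sema3c, Sema3e and Unc5c) passed in each of the 16 alternatives with a test, and 17 lost the call in 1 or more. Lower guidance genes numbered 9, and 7 to 9 with an array left out. Higher guidance genes numbered 15, and 9 to 14 with an array left out; the series table of fold changes gave 7, a fit with no dye term 9, and the fit with no replicate block, the 8 channels as separate samples, 5. For partner genes, the 13 lower became 8 both with the series table and without the pairing of channels, and 11 to 11 with an array left out. The 10 higher became 5 with processed signals, 6 with median centring, 4 with the series table, 5 with no dye term, 5 with channels as separate samples, and 5 to 6 with an array left out. The filter of the study at 1.5-fold passed 1 higher guidance gene (Nrp2) in place of 0. Sema3d had a mean of -0.11 on arrays 1 and 3 alone against 0.16 on all. In the series table, whose values are rounded, 14 of the 24 calls were lost and 3 gained (Plxnb2, Robo2 and Sema6d); for Slit3 (0.128), Sema4d (0.0684), Ntn3 (0.0879), Sema3g (0.0698) and Plxnd1 (0.0904) this was the only setting to end the call. With channels as separate samples 11 calls were lost, and this alone ended those of Sema5b (0.0594), Robo4 (0.06) and Sema3f (0.234). Over all genes, 3360 lower and 4068 higher became 2050 and 1833 with the series table, and 2069 and 2040 with channels as separate samples. They became 3126 and 3118 with median centring, 2833 and 3487 with processed signals, and 2551 and 2965 with no dye term. With an array left out, 2180 (without array 3) to 2813 were lower and 2878 to 3345 were higher. The causes were not tested. Aquantile scaling leaves ratios as they are. The filter on both channels removed none of the 46 guidance genes, and the Dcc alternative changed the probe of Dcc alone. These alternatives could therefore hardly change the 24 calls. A block for slide or scan could not be fitted, since the 4 arrays share 1 scan. Reading Dcc from another probe was an alternative chosen after seeing the data. Dim probes limit small ratios, since the offset pulls them towards 0.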
